A study of Mus musculus with 24 samples.

Results

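Chromatin accessibility was examined at 20 ATAC-seq regions assigned to the immediate-early genes Fos, Fosb, Jun, Junb, Jund, Egr1, Ier2, Ier3 and Zfp36 and to Btg2, out of 13910 regions counted in the series. A region belonged to one of these genes if it overlapped the gene, or if the nearest end of any protein-coding gene lay within 50 kb and was an end of that gene. This gave 5 regions for Btg2, 3 each for Fos, Fosb and Junb, 2 for Egr1 and 1 each for Jun, Jund, Ier2 and Zfp36, and none for Ier3, so 9 of the 10 genes were represented. The genes were taken by name, with earlier results of these data known. A single region, at chr1:134073183-134073467 (mm10/GRCm38) beyond the 3′ end of Btg2, was chosen by its measured values, namely its lower accessibility in IκB– recipients, so that its values are given below as a description without a test, and members are counted over the 19 other regions. The 19 include the other regions of Btg2. All 20 regions passed the filter on low counts.

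Immediate-early genes are transcribed within minutes of a stimulus from promoters that are already open, without new protein synthesis. Fos, Fosb, Jun, Junb and Jund encode subunits of the AP-1 transcription factor, and Egr1 encodes a zinc finger transcription factor known to restrain division and egress of hematopoietic stem cells. Zfp36 encodes tristetraprolin, which promotes decay of inflammatory mRNAs, Ier2 and Ier3 encode early response proteins, and Btg2 encodes an antiproliferative protein that binds the mRNA deadenylation machinery. Several of these genes respond to inflammatory signals that also activate NF-κB, the factor held in check by IκB proteins.

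The study asked whether the marrow environment of the recipient alters donor stem and progenitor cells. CD45.1 marrow of WT donors had been placed into young CD45.2 recipients, either WT or of a line designated IκB–, whose genetic change, and the cells in which it acts, the labels do not describe. After 13 to 15 weeks, donor cells of 4 subsets were sorted from femur and tibia marrow, 500 to 1500 cells per sample: long-term hematopoietic stem cells (HSC), defined in the protocol as Flt3– CD150– CD48– (such cells are usually gated as CD150+, so HSC is used here as the study's name for this gate), and the multipotent progenitors MPP2 (CD150+ CD48+), MPP3 (CD150– CD48+) and MPP4 (Flt3+). The cells were therefore of WT donor origin in all 8 groups, and the groups differed in recipient and subset. The transposase Tn5 cuts open chromatin in this assay, and the counts of its fragments over each region are the measurement.

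Each group had 3 libraries. A chi-square test found no difference beyond sampling noise between libraries 2 and 3 of WT MPP3 (p = 0.3477 over 13126 regions, with 1.005 per degree of freedom), and they were counted as 1 sample, which left 23 replicates, 11 from WT and 12 from IκB– recipients. The labels do not say whether replicates were separate animals, so p-values measure the spread between these samples. The fit counted the libraries of all subsets as independent. Within a recipient type, deviations of same-numbered libraries from different subsets correlated over 0.1 in 27 of 36 pairs. With different numbers this held for 1 of 72 pairs. The SE and p-values of effects averaged over the subsets may therefore be too small. Library totals ran from 121599 to 963699 counts, and the 20 regions together received 148 to 1632 counts per replicate, so single regions often rested on few counts. Counts falling no farther than 1 kb from gene ends made up 61.9% to 71.3% of nuclear counts in WT recipients and 63.2% to 74.0% in IκB– recipients, and the highest of these gene-end shares, in IκB– HSC replicate 3, stood together with the highest share of counts in the 20 regions (0.246%, against 0.107% to 0.224% in the other replicates). Replicate 3 had the highest such share of its group in all 4 IκB– subsets, at 0.168% to 0.246% against 0.107% to 0.172% in the 8 other IκB– libraries and 0.110% to 0.149% in WT recipients. In WT recipients the library numbered 3 had the highest share in the 20 regions in 1 of 4 subsets. Its gene-end share was the highest in all 4 (68.2% to 71.3%, against 61.9% to 67.9% in the other WT libraries). In IκB– recipients the gene-end share of number 3 was the highest in 3 of 4 subsets (67.6% to 74.0%, against 63.2% to 71.9%). The mean recipient effects are also given without the 4 IκB– libraries numbered 3, a choice made after the data were seen that itself lowers the IκB– values. Of 10 stem and progenitor marker genes, 7 (Kit, Ptprc, Cd34, Slamf1, Flt3, Mecom and Hlf) had tested regions, whose summed level was 550.3 to 938.6 CPM in WT and 603.4 to 1102 CPM in IκB– recipients. For markers of other cells, 1 of 5 T cell, 1 of 5 B cell, 2 of 6 granulocyte and monocyte, 3 of 5 erythroid, 3 of 4 megakaryocyte and 1 of 5 stromal or endothelial genes had a tested region. Their summed levels overlapped between recipients in each list, which does not show that the samples were alike in composition. In WT and IκB– recipients the megakaryocyte ranges were 119.3 to 303.1 and 89.37 to 205.6 CPM, and the erythroid ones 102.4 to 197.9 and 73.03 to 151.9. Granulocyte and monocyte ranges were 17.03 to 76.48 and 30.46 to 103.4 CPM, and stromal or endothelial ones 6.953 to 46.84 and 11.72 to 63.96. T cell ranges were 36.69 to 90.7 and 32.65 to 93.17 CPM, and B cell ranges 4.774 to 76.96 and 18.93 to 53.18.

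The annotated starts of Btg2, Jun, Junb and Fos lay inside an accessible region. Of the 250 bases before each start, 247 lay inside the region for Btg2, 250 for Jun, 172 for Junb and 250 for Fos. These stretches are shown because the recipient values at these promoters, given below, ran from a log2 fold change of 0.04 at Btg2 to 0.60 at Jun and 0.71 at Fos. The sequences are from RefSeq (GRCm38.p6) and read 5′ to 3′ toward the start: Btg2 chr1:134079156-134079405 (minus strand), Jun chr4:95052223-95052472 (minus), Junb chr8:84978749-84978998 (minus) and Fos chr12:85473640-85473889 (plus). Capitals mark matches on either strand to TGACNTCA (the pattern of CREB, ATF and Jun sites), TGACTCA (the core AP-1 site), CCAAT (the site of NF-Y), TATAAA (the core promoter box) or the CArG box of SRF.
Btg2: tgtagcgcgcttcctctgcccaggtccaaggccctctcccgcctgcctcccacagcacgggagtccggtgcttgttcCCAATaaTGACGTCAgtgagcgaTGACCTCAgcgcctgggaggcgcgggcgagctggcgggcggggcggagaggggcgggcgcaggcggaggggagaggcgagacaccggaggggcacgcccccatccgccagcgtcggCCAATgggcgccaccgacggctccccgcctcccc
Jun: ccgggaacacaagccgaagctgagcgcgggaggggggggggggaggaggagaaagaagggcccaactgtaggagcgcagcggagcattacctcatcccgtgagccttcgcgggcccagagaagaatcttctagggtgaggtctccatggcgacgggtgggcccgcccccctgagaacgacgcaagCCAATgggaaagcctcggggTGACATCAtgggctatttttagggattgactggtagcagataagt
Junb: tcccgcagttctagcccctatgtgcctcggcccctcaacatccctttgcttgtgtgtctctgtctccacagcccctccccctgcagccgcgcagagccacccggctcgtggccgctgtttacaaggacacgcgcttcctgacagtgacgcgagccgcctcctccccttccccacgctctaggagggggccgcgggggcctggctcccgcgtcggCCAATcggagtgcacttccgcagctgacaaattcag
Fos: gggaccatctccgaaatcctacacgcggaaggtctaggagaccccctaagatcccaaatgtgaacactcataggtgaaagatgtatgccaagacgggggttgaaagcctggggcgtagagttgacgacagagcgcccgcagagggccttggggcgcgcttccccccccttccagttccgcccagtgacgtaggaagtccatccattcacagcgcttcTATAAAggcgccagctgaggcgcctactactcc

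The Btg2 stretch held TGACNTCA at 2 places, the first 166 to 159 bases before the start, and the second 150 to 143 bases before it. In Jun the same pattern stood 45 to 38 bases before the start and CCAAT 65 to 61 bases before it. Of the patterns searched, Junb held CCAAT alone and Fos TATAAA alone, 33 to 28 bases before the start. Of 32851 promoter windows of this length in the reference, 7.49% held TGACNTCA, 4.46% TGACTCA, 33.8% CCAAT, 12.4% TATAAA and 1.47% a CArG box on either strand. These are matches of letters and do not show that a factor was bound.

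Btg2 was the gene with the most regions. The region that had been chosen by its values lay 1.4 kb beyond the 3′ end of the gene (285 bp wide, centre 5.8 kb from the start). In WT recipients it had 85.6, 50.8 and 70.7 CPM (counts per 1000000, on library sizes scaled by the trimmed mean of M-values, TMM) in HSC, 57.5, 39.4 and 55.0 in MPP2, 43.6 and 38.3 in MPP3 and 34.8, 55.6 and 47.7 in MPP4. The corresponding IκB– values were 41.3, 44.7 and 22.2 CPM in HSC, 38.9, 29.4 and 45.4 in MPP2, 8.61, 7.03 and 5.41 in MPP3 and 21.8, 7.60 and 3.08 in MPP4. All replicates from IκB– recipients were below all replicates from WT recipients in HSC, MPP3 and MPP4, while the MPP2 values overlapped.

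As a description of the values that chose it, the mean recipient effect at this Btg2 region was −1.42 ± 0.23 (log2 fold change, IκB– minus WT, ± SE), a 2.68-fold lower level, and −1.20 without the 4 IκB– libraries numbered 3. By subset it was −2.39 ± 0.47 in MPP3, −1.96 ± 0.52 in MPP4, −0.99 ± 0.46 in HSC and −0.36 ± 0.38 in MPP2. The raw counts behind the low values were small, 9, 3 and 2 in IκB– MPP3 and 8, 1 and 1 in IκB– MPP4. In sorted bulk samples, fewer cells with an open region and less opening per cell cannot be told apart.

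**Figure D1:**
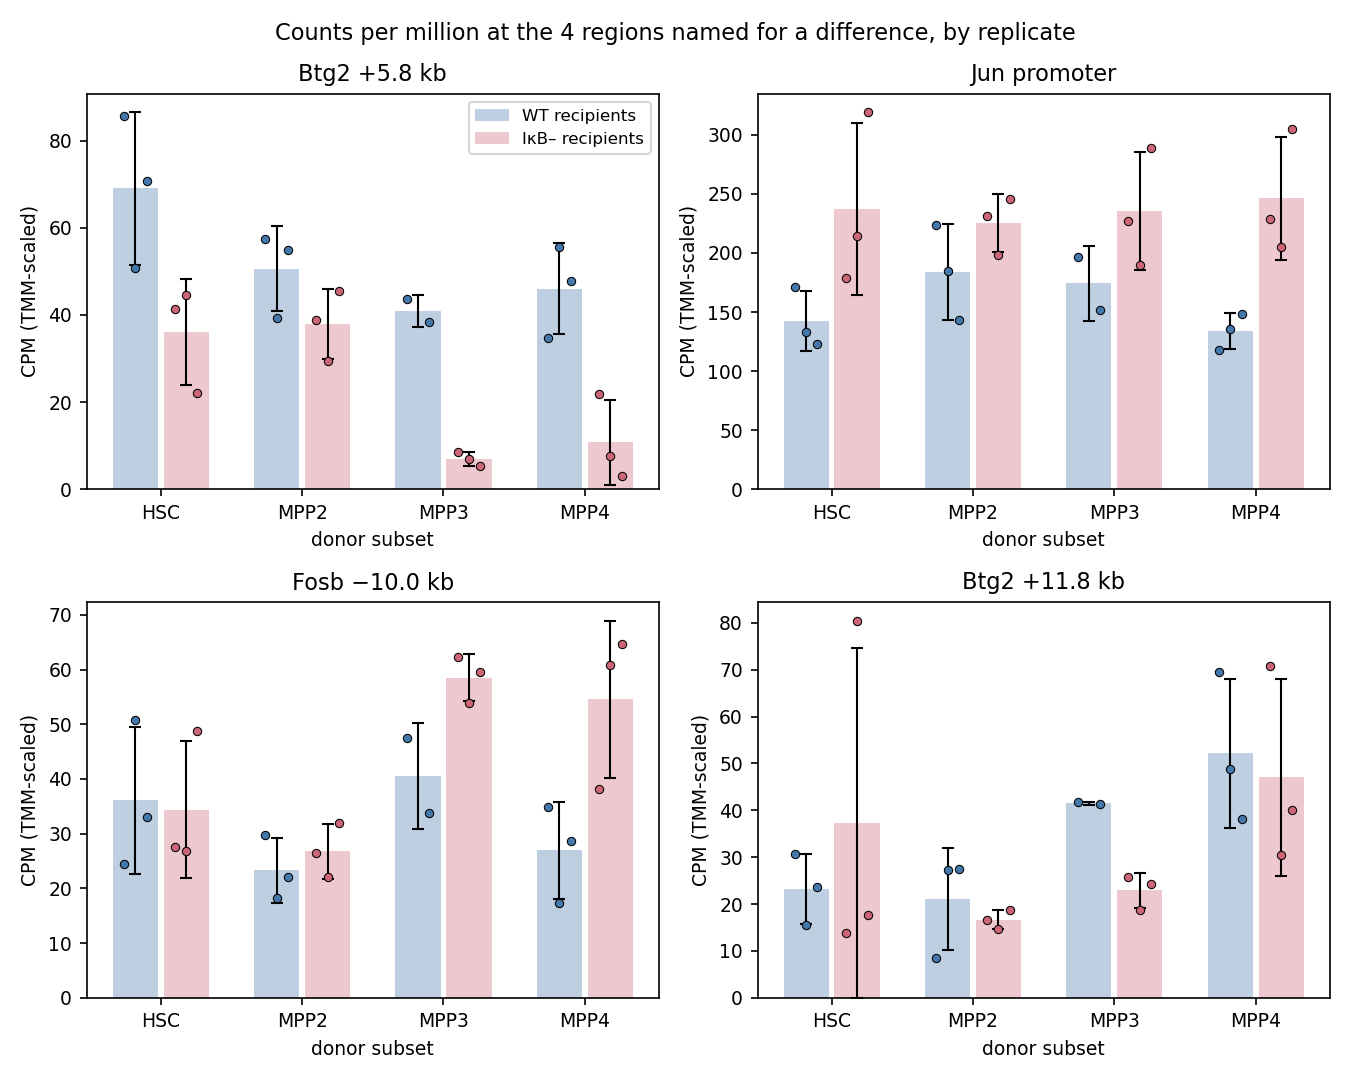
Bars give the mean CPM, whiskers the SD and points the replicates for 4 regions in WT (blue) and IκB– (red) recipients, by donor subset; distances in the titles run from the annotated start to the region's centre, positive in the direction of transcription. The Btg2 +5.8 kb points of IκB– MPP3 lie between 5.41 and 8.61 CPM against 38.3 and 43.6 CPM in WT MPP3, and the Jun promoter points of IκB– recipients lie above those of WT recipients in HSC and MPP4.

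The other 4 Btg2 regions showed no called recipient difference. At the promoter region (chr1:134079015-134079402, covering the start) the values in WT recipients were 67.3, 62.5 and 141 CPM in HSC, 68.1, 78.8 and 77.0 in MPP2, 62.6 and 88.8 in MPP3 and 83.4, 90.4 and 134 in MPP4. In IκB– recipients they were 62.0, 26.8 and 195 CPM in HSC, 73.7, 51.4 and 82.8 in MPP2, 111, 63.3 and 130 in MPP3 and 68.0, 53.2 and 92.5 in MPP4. The recipients overlapped in every subset at the Btg2 promoter, and the log2 fold change was 0.04 ± 0.19 (edgeR, adjusted p = 0.949), with a sign that changed under 7 of the 33 other analyses. Without the 4 IκB– libraries numbered 3 it was −0.38.

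Upstream of Btg2, the mean recipient effects were 0.03 ± 0.22 at the region centred 13.9 kb before the start (adjusted p = 0.966) and 0.52 ± 0.31 at the one 14.9 kb before it (adjusted p = 0.450). Without IκB– HSC replicate 3, which had 97.6 CPM at the latter against 0 and 17.9 CPM in the other IκB– HSC replicates, these effects were −0.12 and −0.10. Without all 4 libraries numbered 3 the former was −0.40, and the latter fell below the filter on low counts. At the region farthest beyond the 3′ end (chr1:134067246-134067475, centre 11.8 kb from the start) the effect was −0.12 ± 0.26 (adjusted p = 0.894; 0.02 without the 4 libraries), although the MPP3 values did not overlap, at 25.8, 18.7 and 24.3 CPM in IκB– and 41.7 and 41.3 CPM in WT recipients. Within the locus the low level in IκB– recipients was thus seen at the region that the values had chosen, and no difference between the Btg2 regions was tested.

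**Figure D2:**
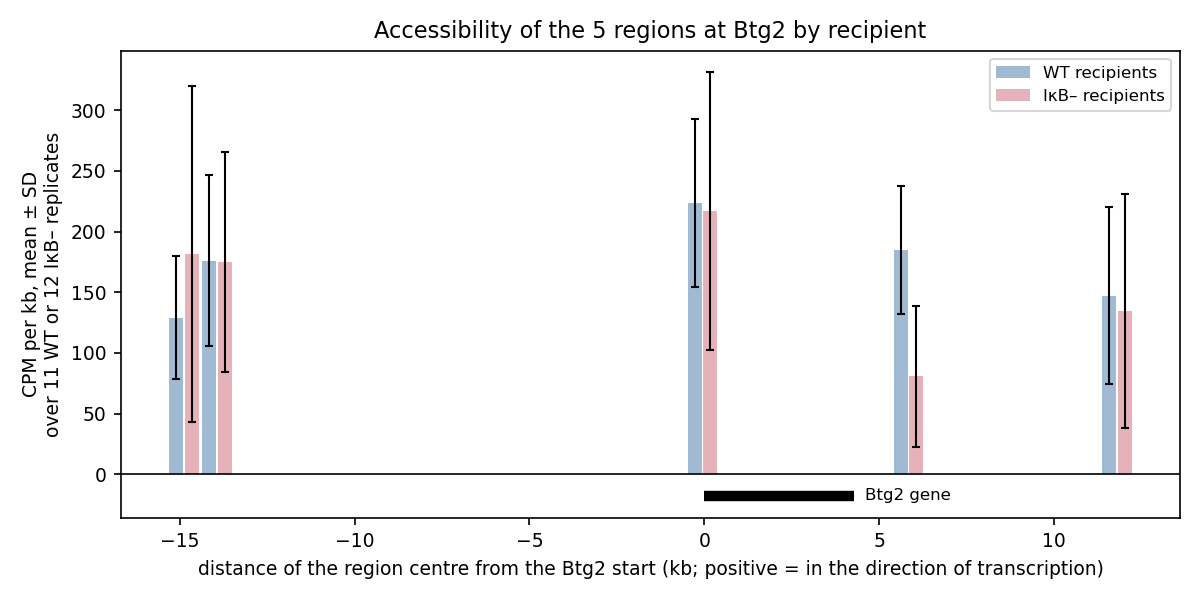
Mean CPM per kb of region (bars, SD as whiskers, over 11 replicates from WT and 12 from IκB– recipients) at the 5 Btg2 regions, placed by the distance of the region's centre from the annotated start in kb, with the gene drawn below. The recipient means lie apart at +5.8 kb, the region chosen for that difference, and differ by less than the larger SD at the other 4 regions.

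Jun, the AP-1 subunit whose gene is a target of its own product, had 1 region, and it was the 1 member called between recipients, with a higher level in IκB– recipients; other members had larger estimates that were not called. The region (chr4:95052106-95052782, 677 bp) covered the annotated start. In WT recipients it had 171, 133 and 123 CPM in HSC, 224, 185 and 143 in MPP2, 197 and 152 in MPP3 and 118, 136 and 148 in MPP4. From IκB– recipients the values were 179, 214 and 319 CPM in HSC, 231, 198 and 246 in MPP2, 227, 190 and 289 in MPP3 and 229, 205 and 305 in MPP4. Every IκB– value was above every WT value in HSC and in MPP4, whereas MPP2 and MPP3 overlapped. Replicate 3 was the highest IκB– value in every subset.

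Over the subsets the Jun region was 1.51-fold higher in IκB– recipients (log2 fold change 0.60 ± 0.12, edgeR adjusted p = 0.00641), with means of 236 ± 45.8 (SD, n = 12) and 157 ± 33.3 CPM (n = 11). This SE and p-value count same-numbered libraries of different subsets as independent and may be too small. By subset the log2 fold change was 0.89 ± 0.25 in MPP4, 0.79 ± 0.26 in HSC, 0.43 ± 0.24 in MPP3 and 0.28 ± 0.23 in MPP2, and none of these passed on its own (adjusted p = 0.332, 0.680, 0.600 and 0.999). The test that the effect differed between subsets did not pass either (adjusted p = 0.999). Without IκB– HSC replicate 3, which had the highest gene-end share, the mean effect was 0.52 and still called, and it was 0.57 and called once that share entered the fit as a covariate. Jun was called in each of the 10 other analyses and the 23 fits with a replicate left out, at 0.52 to 0.65, but not without the 4 IκB– libraries numbered 3 (0.42 ± 0.13, adjusted p = 0.0905), where it was 0.69 in MPP4, 0.48 in HSC, 0.29 in MPP3 and 0.21 in MPP2.

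In the comparison of recipients over the subsets, 1 of the 19 regions not chosen by this comparison was called (the Jun region), where 1.73% of the 13325 tested regions were called. Without adjustment, 9 of the 19 had p under 0.05, as did 1908 of the 13325. The log2 fold changes of the 19 ran from −0.12 to 0.74 with a median of 0.36, and 18 were above 0 (all but the Btg2 region 11.8 kb from the start), while over all tested regions the median was −0.00 and 49.8% were above 0. The 9 member regions within 1 kb of a gene end were all above 0 with a median of 0.49, against a median of 0.01 over the 7442 such regions tested. Of these 9, 8 were above 0 with a median of 0.20 without IκB– HSC replicate 3, and 7 with a median of 0.07 without the 4 IκB– libraries numbered 3. Leaving out IκB– HSC replicate 3 lowered the count above 0 from 18 to 14 and the median to 0.20, and its gene-end share of 74.0% is given above. With every replicate and the gene-end share as a covariate, 16 of the 19 were above 0 and the median was 0.38. Without all 4 IκB– libraries numbered 3, 18 of these regions were tested, 12 were above 0 and the median was 0.06 (all regions −0.02). In that fit edgeR called 0 of the 18 and 0.814% of all regions, with 2 of the 18 and 1913 of all regions at unadjusted p under 0.05, and DESeq2 and the limma fits were not run on it. The part of these libraries in the recipient effects was otherwise not tested. The members share libraries, and the genes were listed with earlier results of these data known, so this count is a description of these samples.

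**Figure D3:**
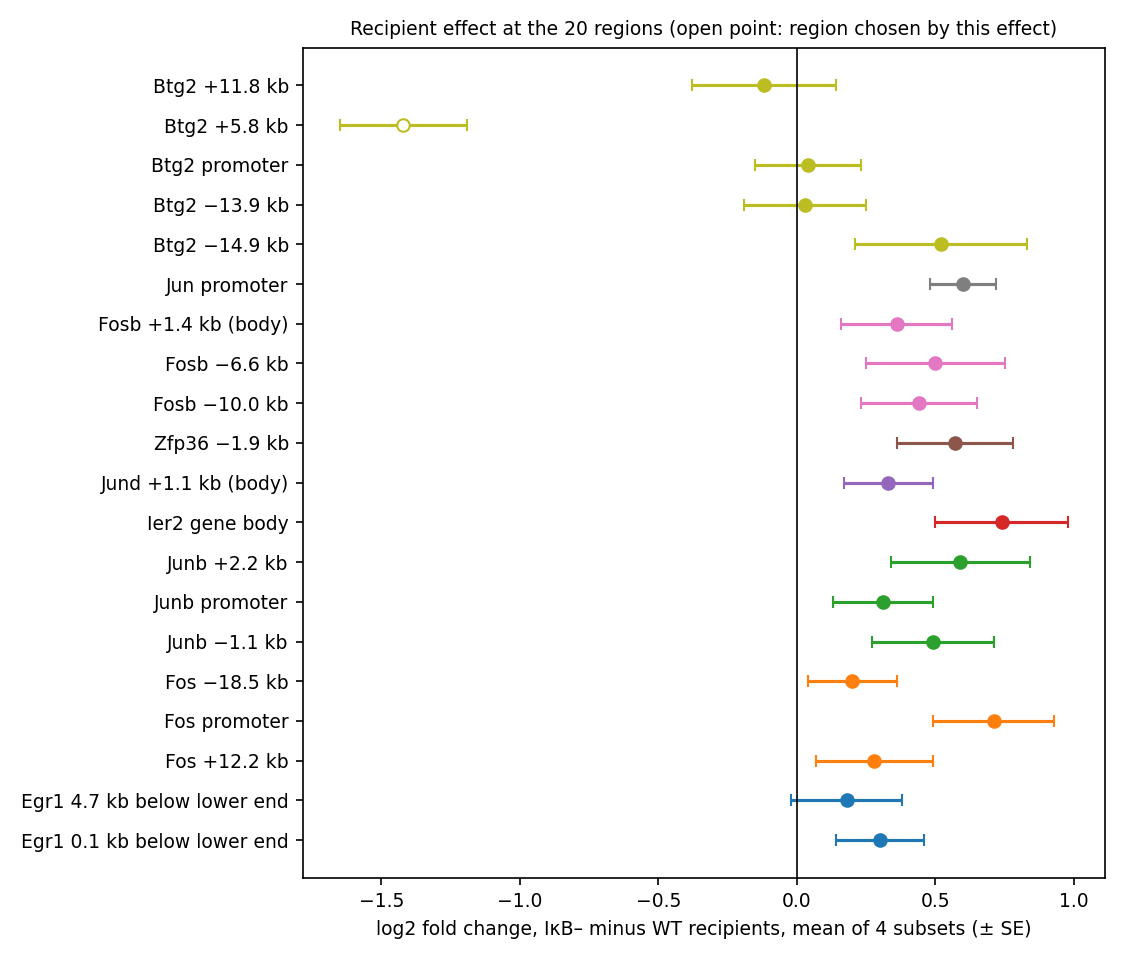
Points give the log2 fold change of IκB– against WT recipients averaged over the 4 subsets and whiskers the SE for each of the 20 regions, coloured by gene. Of the 19 filled points, 18 lie to the right of 0, and the open point is the Btg2 region that was chosen by this effect, at −1.42.

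Fos, the dimer partner of Jun, had 3 regions. Its promoter region (chr12:85473575-85473984) had 79.5, 66.5 and 42.4 CPM in WT HSC, 61.7, 33.3 and 11 in WT MPP2, 43.6 and 33.7 in WT MPP3 and 20.9, 45.2 and 38.2 in WT MPP4. In IκB– recipients it had 75.7, 80.4 and 138 CPM in HSC, 47.3, 66.0 and 98.8 in MPP2, 44.0, 56.2 and 86.6 in MPP3 and 29.9, 83.6 and 83.2 in MPP4. The ranges overlapped in HSC, MPP2 and MPP4, and in MPP3 they were separated by less than 1 CPM.

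The Fos promoter effect of 0.71 ± 0.22 did not pass in edgeR (adjusted p = 0.0797). It passed under 4 alternatives: without WT MPP2 replicate 1 (0.89, adjusted p = 0.0362), without IκB– MPP4 replicate 1 (0.82, 0.0334), without IκB– HSC replicate 1 (0.75, 0.0450) and with a replicate block (0.68, 0.0313). The fit with the block also counted all 24 libraries apart, so WT MPP3 libraries 2 and 3 entered it as separate replicates. The region 18.5 kb upstream, the most accessible of the Fos regions per length (186 CPM per kb), had 67.3, 70.4 and 75.5 CPM in WT HSC, 119, 63.6 and 93.5 in WT MPP2, 89.2 and 110 in WT MPP3 and 76.5, 73.0 and 62.1 in WT MPP4. With 48.2, 35.7 and 133 CPM in HSC, 93.2, 88.1 and 96.1 in MPP2, 98.6, 93.7 and 122 in MPP3 and 92.5, 91.2 and 123 in MPP4, the IκB– values lay above those of WT in MPP4 and overlapped with them elsewhere (mean effect 0.20 ± 0.16, adjusted p = 0.628). The region 12.2 kb past the Fos start gave 0.28 ± 0.21 (adjusted p = 0.584). Without IκB– HSC replicate 3 these effects were −0.03 and 0.03, and without the 4 libraries numbered 3 they were −0.11 and −0.09. The promoter effect was then 0.61 and 0.35.

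Fosb, a second Fos-family subunit, had a region in its body, a proximal one centred 6.6 kb before the start and a distal one whose nearer edge lay 9.9 kb before it, with recipient effects of 0.36 ± 0.20, 0.50 ± 0.25 and 0.44 ± 0.21 (adjusted p = 0.416, 0.346 and 0.330). Without the 4 IκB– libraries numbered 3 they were 0.29, 0.54 and 0.25. The body region, the most accessible per length (186 CPM per kb), had 116, 31.3 and 42.4 CPM in WT HSC, 70.3, 39.4 and 38.5 in WT MPP2, 66.4 and 44.4 in WT MPP3 and 83.4, 31.3 and 47.7 in WT MPP4. The corresponding IκB– values were 75.7, 44.7 and 71.0 CPM in HSC, 79.3, 51.4 and 74.8 in MPP2, 66.0, 56.2 and 62.2 in MPP3 and 51.7, 98.8 and 92.5 in MPP4. Replicate 1 was the highest in every WT subset, and the recipients overlapped in all 4 subsets.

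Junb, a Jun-family subunit whose loss in mice causes expansion of myeloid progenitors, had a promoter region (chr8:84978636-84978920) and flanking ones 1.1 kb upstream and 2.2 kb past the start. The promoter had 55.0, 54.7 and 70.7 CPM in WT HSC, 68.1, 60.6 and 60.5 in WT MPP2, 68.3 and 56.6 in WT MPP3 and 69.5, 34.8 and 85.9 in WT MPP4. From IκB– recipients the values were 41.3, 71.5 and 160 CPM in HSC, 41.7, 73.4 and 61.4 in MPP2, 89.0, 89.0 and 103 in MPP3 and 78.9, 45.6 and 74.0 in MPP4. The MPP3 values did not overlap and the others did, and the mean effect was 0.31 ± 0.18 (adjusted p = 0.442), at 0.10 without IκB– HSC replicate 3 and 0.05 without the 4 libraries numbered 3. The flanking regions gave 0.49 ± 0.22 upstream (adjusted p = 0.290; 0.20 without the 4 libraries) and 0.59 ± 0.25 past the gene (adjusted p = 0.241). The latter had 0 counts in IκB– HSC replicate 1 and 115 CPM in IκB– HSC replicate 3, and its effect was 0.73 without the former, 0.20 without the latter and 0.07 without the 4 IκB– libraries numbered 3.

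Jund, the Jun-family subunit that is generally expressed without stimulation, had 1 region in its body (chr8:70698454-70699292, 839 bp). It had 153, 176 and 222 CPM in WT HSC, 207, 142 and 192 in WT MPP2, 212 and 173 in WT MPP3 and 209, 122 and 248 in WT MPP4. In IκB– recipients it had 179, 197 and 466 CPM in HSC, 185, 139 and 256 in MPP2, 245, 192 and 373 in MPP3 and 177, 114 and 265 in MPP4. The recipients overlapped in every subset and the highest value, 466 CPM, was again in IκB– HSC replicate 3 (mean effect 0.33 ± 0.16, adjusted p = 0.325). The effect was 0.18 without that library and −0.04 without the 4 libraries numbered 3.

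Egr1 had 2 regions, 0.1 and 4.7 kb below its lower coordinate end (chr18:34860552-34861099 and chr18:34856261-34856504). The latter, slightly more accessible per length (192.5 against 184.6 CPM per kb), had 48.9, 43.0 and 61.3 CPM in WT HSC, 38.3, 42.4 and 44.0 in WT MPP2, 43.6 and 33.7 in WT MPP3 and 20.9, 41.7 and 76.4 in WT MPP4. The corresponding IκB– values were 34.4, 44.7 and 57.7 CPM in HSC, 51.4, 44.0 and 53.4 in MPP2, 41.1, 49.2 and 67.6 in MPP3 and 49.0, 22.8 and 70.9 in MPP4. The recipient effects were 0.18 ± 0.20 at this region (adjusted p = 0.748) and 0.30 ± 0.16 at the nearer one (adjusted p = 0.411), and without the 4 libraries numbered 3 they were −0.03 and 0.05. In MPP3 the nearer region had 82.3, 112 and 108 CPM in IκB– and 53.1 and 58.2 CPM in WT recipients, without overlap (0.82 ± 0.33, adjusted p = 0.345).

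Ier2 and Zfp36 had 1 region each. The Ier2 region lay in the gene (chr8:84661626-84661881) and had 42.8, 7.82 and 28.3 CPM in WT HSC, 25.5, 15.2 and 38.5 in WT MPP2, 53.1 and 24.5 in WT MPP3 and 34.8, 17.4 and 43.0 in WT MPP4. From IκB– recipients the values were 20.7, 53.6 and 84.3 CPM in HSC, 38.9, 29.4 and 29.4 in MPP2, 52.6, 51.5 and 78.4 in MPP3 and 35.4, 60.8 and 55.5 in MPP4. Its effect, the highest estimate among the members at 0.74 ± 0.24, did not pass (adjusted p = 0.113), and the recipients overlapped in every subset.

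The Zfp36 region (chr7:28381079-28381276, 198 bp) lay 1.9 kb upstream of the start and had the highest level per length of the 20 regions, 296 CPM per kb, where the others had 130.3 to 293 CPM per kb. It had 42.8, 62.5 and 61.3 CPM in WT HSC, 42.6, 18.2 and 44.0 in WT MPP2, 49.3 and 53.6 in WT MPP3 and 27.8, 59.1 and 47.7 in WT MPP4. In IκB– recipients it had 13.8, 89.3 and 120 CPM in HSC, 45.9, 66.0 and 58.7 in MPP2, 63.2, 60.9 and 103 in MPP3 and 57.1, 60.8 and 102 in MPP4. The IκB– values were above those of WT in MPP2 and MPP3 and overlapped in HSC and MPP4 (mean effect 0.57 ± 0.21, adjusted p = 0.160). Within IκB– HSC, replicate 1 was the lowest and replicate 3 the highest at Zfp36, Ier2, Jund and the Junb promoter. Without that replicate 1, the library of the lowest gene-end share in IκB– recipients (63.2%), the Zfp36 (0.68), Ier2 (0.84), Junb +2.2 kb (0.73) and Fos promoter (0.75) effects were called in addition to Jun (adjusted p = 0.0279, 0.0377, 0.0413 and 0.0450), giving 5 of 19 regions in a fit that called 442 of all regions, against 231 with every library. Without the 4 IκB– libraries numbered 3 these 4 effects were 0.22, 0.52, 0.07 and 0.35, and none was called (adjusted p = 0.376 to 0.935).

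In single subsets the recipient comparison called 0 of the 19 regions with edgeR, against 0.21% of all tested regions in MPP3, 0.045% in MPP4 and 0% in both HSC and MPP2. Unadjusted p was under 0.05 for 3 member regions in HSC (Jun, Jund and Ier2), 0 in MPP2, 2 in MPP3 (Junb +2.2 kb and the nearer Egr1 region) and 2 in MPP4 (Jun and the distal Fosb region), and for 841, 487, 1268 and 946 of all regions. DESeq2, limma-voom and cyclic loess with limma called 0 members in these subsets as well, with 19, 183 and 0 of all regions called in MPP3, 1, 0 and 4 in MPP4 and 0 in the other subsets. The median log2 fold change of the 19 was 0.56 in MPP4, 0.48 in MPP3, 0.42 in HSC and 0.14 in MPP2, where all tested regions had medians of −0.01, 0.01, 0.03 and 0.01. Without the 4 IκB– libraries numbered 3 the medians of the 18 tested members were 0.32, 0.29, −0.17 and 0.01, with all tested regions at −0.01, 0.02, 0.00 and −0.00. The joint test of whether the effect differed between subsets called 0 of the 19 members and 0% of all regions with edgeR, and unadjusted p was under 0.05 for 0 of the 19 and for 539 of all regions. DESeq2, limma-voom and cyclic loess with limma also called 0 members and 0 of all regions in the joint test.

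**Figure D4:**
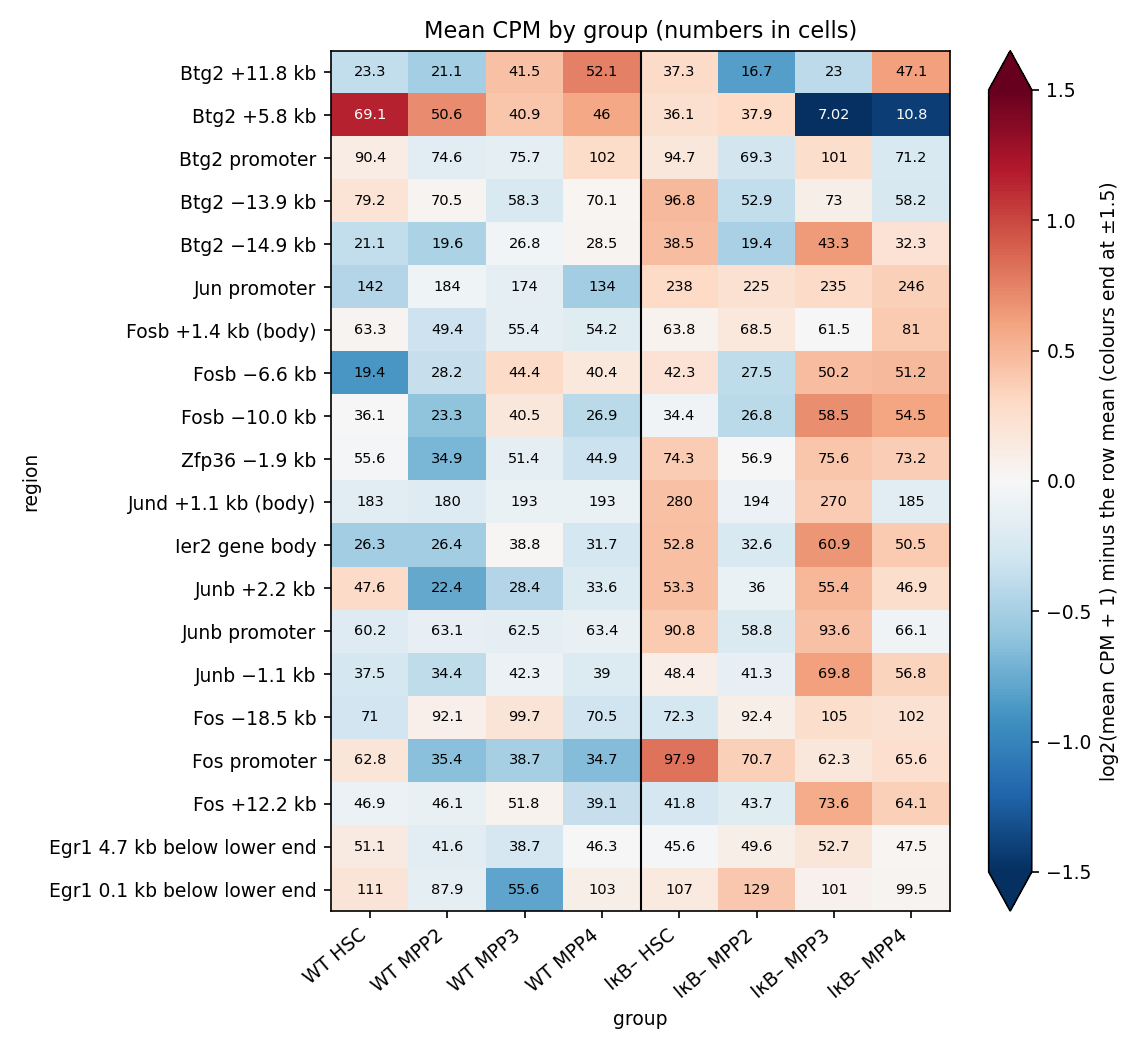
Each cell gives the mean CPM of a region (rows, by gene) in a group (columns), coloured by log2(mean CPM + 1) minus the mean of its row. Values of the Btg2 +5.8 kb row run from 69.1 CPM in WT HSC to 7.02 CPM in IκB– MPP3, and the Jun row from 134 CPM in WT MPP4 to 246 CPM in IκB– MPP4.

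Between subsets, with both recipient types given equal weight, 2 of the 19 regions not chosen by their values were called in a comparison, 1 at Btg2 and 1 at Fosb. The Btg2 call was 1 of 19 for MPP4 against MPP2, where 3.38% of all tested regions were called. The Fosb call was 1 of 19 for MPP3 against MPP2, where 8.14% were called. For the chosen Btg2 region 1.4 kb past the 3′ end, the log2 fold change of MPP3 was −1.42 ± 0.34 against HSC and −1.33 ± 0.31 against MPP2. These are given without a test, because the low MPP3 values of IκB– recipients had contributed to the choice of the region. In WT recipients alone they were −0.72 ± 0.41 and −0.31 ± 0.40, and in IκB– recipients alone −2.13 ± 0.56 and −2.34 ± 0.46. Its order of group means was WT HSC, MPP2, MPP4 and MPP3 at 69.1, 50.6, 46.0 and 40.9 CPM, then IκB– MPP2, HSC, MPP4 and MPP3 at 37.9, 36.1, 10.8 and 7.02 CPM, a 9.84-fold range. The ranges of neighbouring groups in this order overlapped, except between IκB– HSC and IκB– MPP4.

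The Btg2 region 11.8 kb past the start was higher in MPP4 than in MPP2. In MPP4 it had 69.5, 48.7 and 38.2 CPM in WT and 70.7, 30.4 and 40.1 CPM in IκB– recipients, and in MPP2 it had 8.52, 27.3 and 27.5 CPM in WT and 16.7, 14.7 and 18.7 CPM in IκB– recipients. The raw counts were small, 8 to 14 in WT and 4 to 26 in IκB– recipients for MPP4. For MPP2 they were 4 to 9 in WT and 2 to 12 in IκB– recipients. No MPP2 value reached the lowest MPP4 value, and the log2 fold change was 1.46 ± 0.36 (edgeR, adjusted p = 0.0128), at 1.39 ± 0.52 in WT and 1.54 ± 0.49 in IκB– recipients alone, where it did not pass (adjusted p = 0.675 and 0.0925). The call was lost without WT MPP2 replicate 1 (1.20, adjusted p = 0.0712), without IκB– MPP4 replicate 1 (1.24, 0.0888) and with cyclic loess (1.27, 0.0610).

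The distal Fosb region (chr7:19319973-19320233) was higher in MPP3 than in MPP2. It had 47.4 and 33.7 CPM in WT MPP3 and 62.2, 53.9 and 59.5 in IκB– MPP3, against 29.8, 18.2 and 22 CPM in WT MPP2 and 26.4, 22 and 32 in IκB– MPP2. The subsets did not overlap, and the log2 fold change was 0.91 ± 0.27 (edgeR, adjusted p = 0.0290). It was 0.73 ± 0.41 in WT recipients (adjusted p = 0.774) and 1.08 ± 0.35 in IκB– recipients (adjusted p = 0.0492). The call was lost with cyclic loess (0.90, adjusted p = 0.125), DESeq2 (0.92, 0.0751) and a covariate for the gene-end share (0.81, 0.0647), with which the proximal Fosb region was called instead (0.91, 0.0488), and without WT MPP2 replicate 2 (0.83, 0.0890), WT MPP3 replicate 1 (0.79, 0.140), IκB– MPP2 replicate 1 (0.88, 0.0967) or 2 (0.87, 0.0510), or IκB– MPP3 replicate 1 (0.90, 0.0517).

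By comparison, 1 of the 19 regions was called for MPP3 against MPP2, where 8.14% of all tested regions were called, and 1 of the 19 for MPP4 against MPP2 (3.38%). For MPP2 against HSC (0.03%), MPP3 against HSC (2.57%), MPP4 against HSC (1.27%) and MPP4 against MPP3 (0%) edgeR called 0 of the 19, with 2, 3, 2 and 1 of them and 1107, 1897, 1601 and 538 of all regions at unadjusted p under 0.05. DESeq2, limma-voom and cyclic loess with limma called 0 of the 19 there too, and of all regions 310, 267 and 191 for MPP3 against HSC, 125, 44 and 200 for MPP4 against HSC, 4 each for MPP2 against HSC and 0 for MPP4 against MPP3. Without IκB– HSC replicate 3, the Fos region centred 18.5 kb upstream was called in MPP3 against HSC (0.90, adjusted p = 0.0223), in a fit that called 796 of all regions against 343 with every library. The median of the 19 was −0.34 in MPP2 against HSC, with 16 below 0 (all regions −0.01), and 0.37 in MPP3 against MPP2, with 14 above 0 (all regions 0.02). It was 0.15 in MPP4 against MPP2, with 15 above 0 (all regions 0.01), and −0.13 in MPP4 against MPP3, with 14 below 0 (0.02). In MPP3 and MPP4 against HSC it was −0.02 and −0.01, with 10 and 12 below 0 (−0.02 in both). The comparisons with MPP2 share its libraries. Scaling by total counts moved the median of all regions in MPP3 against HSC from −0.02 to 0.12. The Jun region, called between recipients, differed by −0.17 to 0.16 on the log2 scale between subsets, and none of these differences passed (adjusted p = 0.702 to 0.999).

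The regions outside the list whose CPM followed the chosen Btg2 region most closely were a region near Kynu (Pearson r = 0.92 of log2 CPM over 23 replicates), one on chromosome 13 with no gene end within 50 kb (0.90), one near Nrgn (0.87), one in Trpc6 (0.87) and one in Gypc (0.86). Their mean recipient effects were −1.35, −1.75, −0.67, −0.87 and −0.90. These regions were picked for likeness to a region chosen for its negative recipient effect. Negative effects among them therefore follow from the choice and are no separate evidence. The replicates share their 8 groups, so these values largely compare group patterns (r = 0.93 to 0.98 over the 8 group means). Among the members, r with the Btg2 region ran from −0.76 (the distal Fosb region) to −0.02 (the Btg2 region 13.9 kb upstream).

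At the edge of the rule, the farthest member was the Fos region 18.3 kb from the nearest gene end. The nearest region left out by distance lay 53.8 kb from Jun and had a recipient effect of 0.09 ± 0.21. A region 44 bp from Ier3 reached the end of the neighbouring gene Flot1 and was assigned to that gene, with an effect of 0.24 ± 0.18. The regions next nearest to a member gene were 3759 and 3774 bp from Zfp36 and assigned to Med29 and Plekhg2.

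Related genes were counted in lists of AP-1 relatives, EGR and NR4A factors, MAP kinase phosphatases, other early response genes, relatives of Zfp36 and Btg2, and upstream factors such as Srf and Creb1. Of 67 listed names, 56 had 87 tested regions. Between recipients 3 of the 87 regions were called (3.45%, against 1.73% of all regions), with a median of 0.12. A region at Cebpd, which encodes a C/EBP transcription factor induced in inflammation, was higher in IκB– recipients (0.98 ± 0.22, adjusted p = 0.0111), as was one in Mcl1, a survival factor of the Bcl2 family (0.61 ± 0.15, adjusted p = 0.0321). A region 23.6 kb from Zfp36l1, a relative of Zfp36 that also promotes mRNA decay, was lower (−1.28 ± 0.30, adjusted p = 0.0185). Without the 4 IκB– libraries numbered 3 the Zfp36l1 call held (−1.43, adjusted p = 0.0256), and those of Cebpd (0.89, 0.0578) and Mcl1 (0.33, 0.324) were lost. None of the 10 regions of AP-1 relatives, 7 of EGR and NR4A factors and 9 of MAP kinase phosphatases were called.

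Between subsets, 4 of the 87 (4.6%, against 8.14% of all regions) were called in MPP3 against MPP2, all lower in MPP3: in Crem, which encodes a CREB-family factor (−1.76 ± 0.23, adjusted p = 1.97e-06), near Elk4, a partner of SRF (−2.64 ± 0.53, adjusted p = 0.000727), at Rgs1, a regulator of G protein signalling (−0.87 ± 0.25, adjusted p = 0.0225), and at the same Zfp36l1 region (−1.26 ± 0.38, adjusted p = 0.0302). In each of the comparisons that follow 1 of the 87 was called (1.15%, against 0.03%, 3.38% and 2.57% of all regions). The Crem region was also higher in MPP2 than in HSC (1.49 ± 0.26, adjusted p = 0.00447) and lower in MPP4 than in MPP2 (−1.32 ± 0.24, adjusted p = 0.001). The Elk4 region was lower in MPP3 than in HSC (−2.76 ± 0.57, adjusted p = 0.00273).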

How the data were processed

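The measurement was ATAC-seq of 24 libraries, deposited by the authors as 1 table of raw counts per region. Per the submitters' processing notes the tools included Bowtie2, SAMtools, Picard, MACS2 2.1.0 and deepTools with the build mm10. Duplicate removal and the Tn5 offset are not given in the sources used here. Gene positions and promoter sequences came from RefSeq tables of GRCm38.p6, the same build. No sequence of the regions themselves was used here. Groups and replicate numbers came from the titles.

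From the counts, edgeR 4.0.16 (R 4.3.3) was run with TMM scaling, filterByExpr (13325 regions kept), and a robust quasi-likelihood fit of 8 group means with 15 residual degrees of freedom. A region was called at a Benjamini-Hochberg adjusted p under 0.05 over all 13325 regions of a comparison. CPM are counts per 1000000 of the scaled library, given with the SD over replicates. Counts are PCR products without molecular identifiers, so low counts carry more error than a count of molecules would.

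The member genes, the related lists and the tests were chosen with earlier results of these data known. Values per replicate were given for the region chosen by its values, for called members, and for the most accessible region per length of each gene. The Fos promoter values were added after they were seen. Related genes were named where called, at most 5 per comparison.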

Additional observations from a re-analysis of the deposited data

How the results depend on the processing

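Each count of called members was recomputed under 10 alternatives (DESeq2 size factors, total counts, cyclic loess with limma, DESeq2, limma-voom, no filter, placed nuclear regions, the gene-end share as covariate, 24 libraries apart, and 24 apart with a replicate block) and in 23 fits without 1 replicate. For the recipient effect over the subsets, 1 member was called in edgeR (of all regions, 231), 2 with the replicate block (481), 1 to 5 without a replicate (53 to 442), and 0 without the 4 IκB– libraries numbered 3 (103), an alternative added after the data were seen. For MPP3 against HSC the count was 0 in edgeR (of all regions, 343) and 0 to 1 without a replicate (175 to 796). It was 1 without those 4 libraries (the Fos region 18.5 kb upstream), in a fit that called 667 of all regions. For MPP3 against MPP2 the 1 call became 0 with cyclic loess (274 of all regions, against 1085 in edgeR) and 0 with DESeq2 (787). It became 3 with the replicate block (2192) and 0 to 1 without a replicate (597 to 1583). For MPP4 against MPP2 the 1 call became 0 with cyclic loess (237 of all regions, against 450 in edgeR). It ranged from 0 to 1 without a replicate (189 to 734 of all regions). The remaining counts of called members kept to within 1.5 times under these alternatives. The called differences kept their sign, but 4 recipient effects that were not called changed sign under the first 10 alternatives or without 1 replicate, so that 14 to 18 of the 19 were above 0. These were the Btg2 promoter (0.04; −0.13 with cyclic loess, −0.06 with the gene-end share, −0.02 with the replicate block, and −0.26 to 0.17 without a replicate), the Btg2 region 13.9 kb upstream (0.03; −0.03, −0.05, −0.05, and −0.12 to 0.22), and, without IκB– HSC replicate 3, the Btg2 region 14.9 kb upstream (−0.10, range −0.10 to 0.67) and the Fos region 18.5 kb upstream (−0.03, range −0.03 to 0.27). Without the 4 IκB– libraries numbered 3, 7 of the 18 tested effects changed sign: the Btg2 promoter (−0.38), the Btg2 regions 13.9 kb upstream (−0.40) and 11.8 kb past the start (0.02), the Fos regions 18.5 kb upstream (−0.11) and 12.2 kb past the start (−0.09), Jund (−0.04) and the farther Egr1 region (−0.03). The recipient call of Jun was lost in that fit alone (0.42), and each other called difference under at least 1 of the 10 or without a replicate; the causes were not tested. The mean recipient effect of the chosen Btg2 region was −1.76 without IκB– MPP4 replicate 1 and −1.20 without the 4 libraries numbered 3. The values within 1 recipient type were added after the data were seen.

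Replicate numbers were not treated as pairs: of 12 same-numbered pairs of a subset across recipients, 7 had correlated deviations over 0.1 (−0.0415 to 0.351). Of 36 same-numbered pairs of different subsets within a recipient type 27 were over 0.1 (0.0248 to 0.326), against 1 of 72 with different numbers, and not every pair passed. With the replicate block, the Fos promoter (0.68) was called between recipients, and the Fosb region 6.6 kb upstream (0.79) and the nearer Egr1 region (−0.54) in MPP3 against MPP2. Within 10 kb of a gene there were 17 member regions and in a gene or within 1 kb 10, instead of 20. Depth limits these results: the 20 regions held 148 to 1632 counts per replicate.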
